A study of Mus musculus with 6 samples.

Results

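The synaptic vesicle and SNARE exocytosis genes are the genes whose products load a vesicle, dock it at the plasma membrane and fuse it there. They were chosen as a list of 38 gene symbols, and a gene counted as measured where a probe of the array carried that symbol and no other. This held for 37 of the 38, out of 19938 measured genes in all. Vamp2 was the exception, because its only probe is shared with Ubr3. The genes were followed in N2A cells, a neuroblastoma line of the mouse, after transient transfection with 1 of 2 plasmids that express a short hairpin RNA (shRNA) from a U6 promoter. The Pbcas4 shRNA cells received a hairpin against Pbcas4, the noncoding mouse remnant of the human gene BCAS4. The scramble cells received a control hairpin, which the study's methods describe as made by random permutation of nucleotides. RNA was taken 72 h after transfection and hybridised to Affymetrix Mouse Gene 1.0 ST arrays, with 3 arrays from Pbcas4 shRNA cells and 3 from scramble cells. The comparison asks which transcripts differ when Pbcas4 is targeted. Neither Pbcas4 nor BCAS4 is a name in the probe annotation used here, so the level of the targeted transcript was not analysed here. Each array holds the RNA of a whole well, in which fewer cells that express a gene and less RNA per cell cannot be told apart.

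The constructs differ in the arm of the hairpin, which is shown because it is the only designed difference between the groups. Capitals mark the bases that pair with the other arm of the same hairpin, 18 of 19 in the Pbcas4 shRNA and 17 of 18 in the scramble. The arms shown differ in length and base composition, so the scramble arm is not a reordering of the Pbcas4 arm.
Pbcas4 shRNA: GATCCCTGTTGTGACATGa
scramble: AGATACTCGATCCCGCGc

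In neurons and neuroendocrine cells, transmitter is held in vesicles and released when calcium enters. A vesicle SNARE of the VAMP family zips together with syntaxin and a SNAP-25 type protein on the plasma membrane and pulls the membranes into fusion, synaptotagmins sense the calcium, complexins hold and release the zipped complex, and the ATPase NSF with its SNAP adaptors takes the complex apart again. Munc13, CAPS and RIM proteins prepare the docked vesicle, RAB3 proteins mark it, and synapsins tether vesicles in a reserve. Neuroblastoma lines derive from the sympathoadrenal lineage and are known to express much of this machinery.

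Values are log2 expression as deposited, so that a difference of 1 is a factor of 2. A level was compared between arrays but not between probes. Array medians were between 7.75 and 7.86. As a guide to which probes carry signal, the 95th percentile of 1035 probes of olfactory receptor genes, which are silent in most cells, was at 7.19, and 33 of the 37 measured members had a mean above it. Cadps, Cadps2, Rims1 and Unc13b did not. All 10 measured sympathoadrenal and neuroblastoma markers lay above this level, against 8 of 10 fibroblast, 4 of 10 macrophage and 4 of 8 glial markers. Gfap, Aqp4 and Aldh1l1 of astrocytes and Ptprc, Csf1r and Itgam of macrophages were not above it. Mbp, Mog, Olig1 and S100b of the glial list and Cd68, Cx3cr1, Fcgr1 and Tyrobp of the macrophage list were above it. The sympathoadrenal list as a whole averaged 11.27 to 11.45 in the Pbcas4 shRNA arrays and 11.71 to 11.97 in the scramble arrays, and the part of this shift in the results was not tested. The mean of the fibroblast list was 7.97 to 8.13 in the Pbcas4 shRNA arrays and 7.76 to 8.23 in the scramble arrays. For the macrophage list it was 6.89 to 6.96 and 6.82 to 6.93, and for the glial list 7.06 to 7.31 and 7.15 to 7.30, each with the Pbcas4 shRNA arrays first. Scramble replicate 1 stood apart from the other scramble arrays: taking replicates 1 to 3 in turn, the mean of 19 cell division genes was 12.43, 12.23 and 12.21 with Pbcas4 shRNA and 12.28, 11.45 and 10.97 with scramble. All 19 had a higher mean in the Pbcas4 shRNA arrays, and 8 were at an unadjusted limma p under 0.05, where 6.22% of all genes were higher at that p. The count of 8 rested on single arrays: it was 19 without scramble replicate 1, 2 without Pbcas4 shRNA replicate 3 and 0 without any 1 of the other arrays, and the median log2 difference of the list was 0.75 with all arrays and 0.45 to 1.09 with an array left out. With the replicate number as a block the count was 18. The part of cell division in the results was not tested either.

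Of the 37 measured members, 30 had a lower mean in the Pbcas4 shRNA arrays and 7 a higher one, where 49% of all genes had a lower mean. The median log2 difference over the members, Pbcas4 shRNA minus scramble, was -0.31, against 0.0031 over all genes. In 14 members all Pbcas4 shRNA arrays lay below all scramble arrays, where this held for 7.63% of all genes. In 3 members, Vamp3, Nsf and Snap23, all Pbcas4 shRNA arrays lay above, where this held for 9.13% of all genes. limma, fitted across all probes with Benjamini-Hochberg adjustment, called 0 members and 0 genes (0% of genes), where a call needs both an adjusted p below 0.05 and a log2 difference larger than 0.5. At an unadjusted limma p under 0.05, 13 members were lower (5.46% of all genes) and 2 were higher (6.22% of all genes). With only probes above the olfactory receptor level, the members' counts stayed the same. The shares of the 13630 genes left were larger, 7.79% lower and 8.92% higher at that p, and 9.59% and 11.4% without overlap. After each array was centred on its median, 11 members were lower and 3 higher at that p, against 3.68% and 7.69% of all genes. Arrays that did not overlap were then found in 10 lower and 3 higher members, against 4.7% and 12.2% of all genes. The members without overlap on the lower side were a vesicle SNARE, 4 membrane proteins of the vesicle, both synapsins, 3 synaptotagmins, 1 complexin and 3 RAB3 proteins. Those on the higher side, Vamp3, Snap23 and Nsf, are used for many kinds of membrane transport. As 3 of 37 is near the 9.13% of all genes, no shared trait is read from these members. As the members were listed with earlier results of these data known, the counts are a description.

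**Figure D1:**
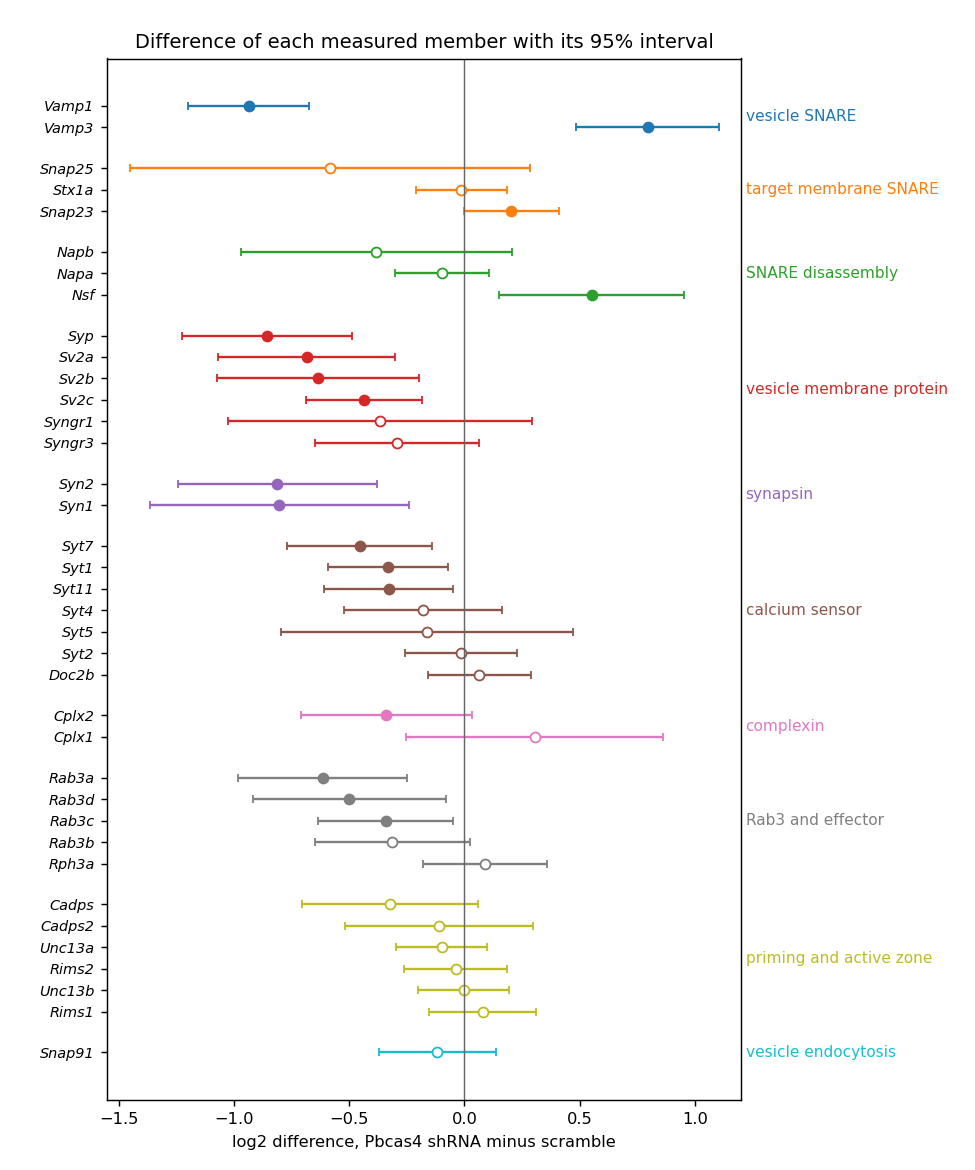
Log2 difference, Pbcas4 shRNA minus scramble, of the 37 measured members, grouped by role (gene names down the left, roles on the right). Points are differences of the means of 3 arrays each, bars are the 95% intervals from limma, and filled points mark members whose arrays did not overlap between the constructs. Vamp1 (-0.94) and Vamp3 (0.79) lie at the opposite ends, and the 6 vesicle membrane proteins and 2 synapsins all lie left of 0.

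The vesicle SNAREs Vamp1 and Vamp3 lay furthest apart of all members. Vamp1 encodes synaptobrevin 1, a SNARE of synaptic vesicles. It was at 8.26, 8.21 and 8.18 in the Pbcas4 shRNA arrays and at 9.05, 9.05 and 9.35 in the scramble arrays. The groups were well apart and scramble replicate 1 lay with its own group. The log2 difference was -0.94 (standard error 0.11, 95% interval -1.20 to -0.68), a factor of 0.522, with an adjusted p of 0.297 from limma. No measured gene went below this value, and the neuroblastoma marker Chgb shared it at a difference of -1.01. Vamp3 encodes cellubrevin, the SNARE of recycling endosomes in most cell types. It was at 12.49, 12.36 and 12.26 in the Pbcas4 shRNA arrays, against 11.81, 11.51 and 11.41 in the scramble arrays. Every Pbcas4 shRNA array was the higher one, by a log2 difference of 0.79 (standard error 0.13, 95% interval 0.49 to 1.10) or a factor of 1.73 (adjusted p = 0.340 from limma). Between arrays with the same replicate number the difference was -0.79, -0.85 and -1.17 for Vamp1 and 0.68, 0.85 and 0.86 for Vamp3. The probe that Vamp2, the main synaptobrevin of the brain, shares with the ubiquitin ligase gene Ubr3 was at 12.22, 11.96 and 12.12 in the Pbcas4 shRNA arrays and at 12.39, 12.51 and 12.42 in the scramble arrays, and it cannot be assigned to either gene.

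On the plasma membrane side, the 3 SNAREs gave 3 different pictures. Snap25, the neuronal partner of syntaxin, was at 11.97, 13.15 and 12.95 in the Pbcas4 shRNA arrays and at 12.73, 13.52 and 13.57 in the scramble arrays. The groups overlapped, since scramble replicate 1 was lower than Pbcas4 shRNA replicates 2 and 3, although the Pbcas4 shRNA array was the lower one in each same-numbered comparison, by 0.76, 0.37 and 0.61. Its log2 difference was -0.58 (standard error 0.36, 95% interval -1.45 to 0.28, unadjusted p = 0.154 and adjusted p = 0.670 from limma) and -0.22 without Pbcas4 shRNA replicate 1. Snap23, the form of this SNARE found in most tissues, was at 11.58, 11.69 and 11.68 in the Pbcas4 shRNA arrays, against 11.53, 11.43 and 11.39 in the scramble arrays. These did not overlap, but Pbcas4 shRNA replicate 1 and scramble replicate 1 were close, and the log2 difference was 0.20 (standard error 0.09, unadjusted p = 0.0516 and adjusted p = 0.496 from limma). Stx1a, the syntaxin of the presynaptic membrane, was at 9.60, 9.71 and 9.71 in the Pbcas4 shRNA arrays and at 9.69, 9.74 and 9.63 in the scramble arrays. The difference was -0.01 with a 95% interval of -0.21 to 0.18, and its sign turned to 0.013 after centring on the array median. Exact permutation of the 6 arrays gave a two-sided p of 0.7 for Stx1a and 0.3 for Snap25.

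Of the proteins that recycle spent SNARE complexes, Nsf, the ATPase itself, was at 11.76, 11.91 and 11.89 in the Pbcas4 shRNA arrays and at 11.67, 11.04 and 11.19 in the scramble arrays. All Pbcas4 shRNA arrays lay above, with scramble replicate 1 only 0.09 below the array of the same number. They differed by 0.55 (standard error 0.17, limma adjusted p = 0.415). Its adaptors had a lower mean and overlapped. Napa, or alpha-SNAP, had a difference of -0.10 (95% interval -0.30 to 0.11), and Napb, the brain form beta-SNAP, one of -0.38 (95% interval -0.97 to 0.21), with scramble replicate 3 far above the rest at 11.60. Napb differed by -0.13 without that array and by -0.62 without scramble replicate 1.

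All 6 measured membrane proteins of the vesicle had a lower mean in the Pbcas4 shRNA arrays, and in 4 of them the arrays did not overlap. Syp, or synaptophysin, one of the most abundant proteins of synaptic vesicles, was at 9.87, 9.97 and 9.72 in the Pbcas4 shRNA arrays, against 10.42, 10.96 and 10.75 in the scramble arrays. It differed by -0.86 (standard error 0.15, 95% interval -1.22 to -0.49), a factor of 0.552 (adjusted p = 0.344 from limma). The 3 SV2 genes encode transporter-like glycoproteins of synaptic and secretory vesicles. Sv2a was at 10.02, 10.26 and 9.98 in the Pbcas4 shRNA arrays and at 10.45, 10.88 and 10.98 in the scramble arrays. This made -0.68 on the log2 scale (standard error 0.16, limma adjusted p = 0.363). Sv2b was at 6.94, 6.85 and 7.05 in the Pbcas4 shRNA arrays and at 7.18, 7.68 and 7.88 in the scramble arrays. All 3 Pbcas4 shRNA arrays and scramble replicate 1 were below the olfactory receptor level. Sv2b therefore counts as above it only through scramble replicates 2 and 3. Scramble replicate 1 lay above the Pbcas4 shRNA arrays, but all of these values were below that level. The measured difference of Sv2b, -0.63 (standard error 0.18), has a dim side, and the scramble mean lay 0.39 above the olfactory receptor level on the log2 scale. Sv2c was at 12.61, 12.61 and 12.36 in the Pbcas4 shRNA arrays and at 12.99, 13.02 and 12.87 in the scramble arrays. Sv2c had the smallest standard error of the 3, with a difference of -0.44 (standard error 0.10). Syngr1 and Syngr3, synaptogyrins related to synaptophysin, overlapped between the constructs at differences of -0.37 (standard error 0.28) for Syngr1 and -0.29 (standard error 0.15) for Syngr3. Without Pbcas4 shRNA replicate 1, Syngr1 differed by -0.08.

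**Figure D2:**
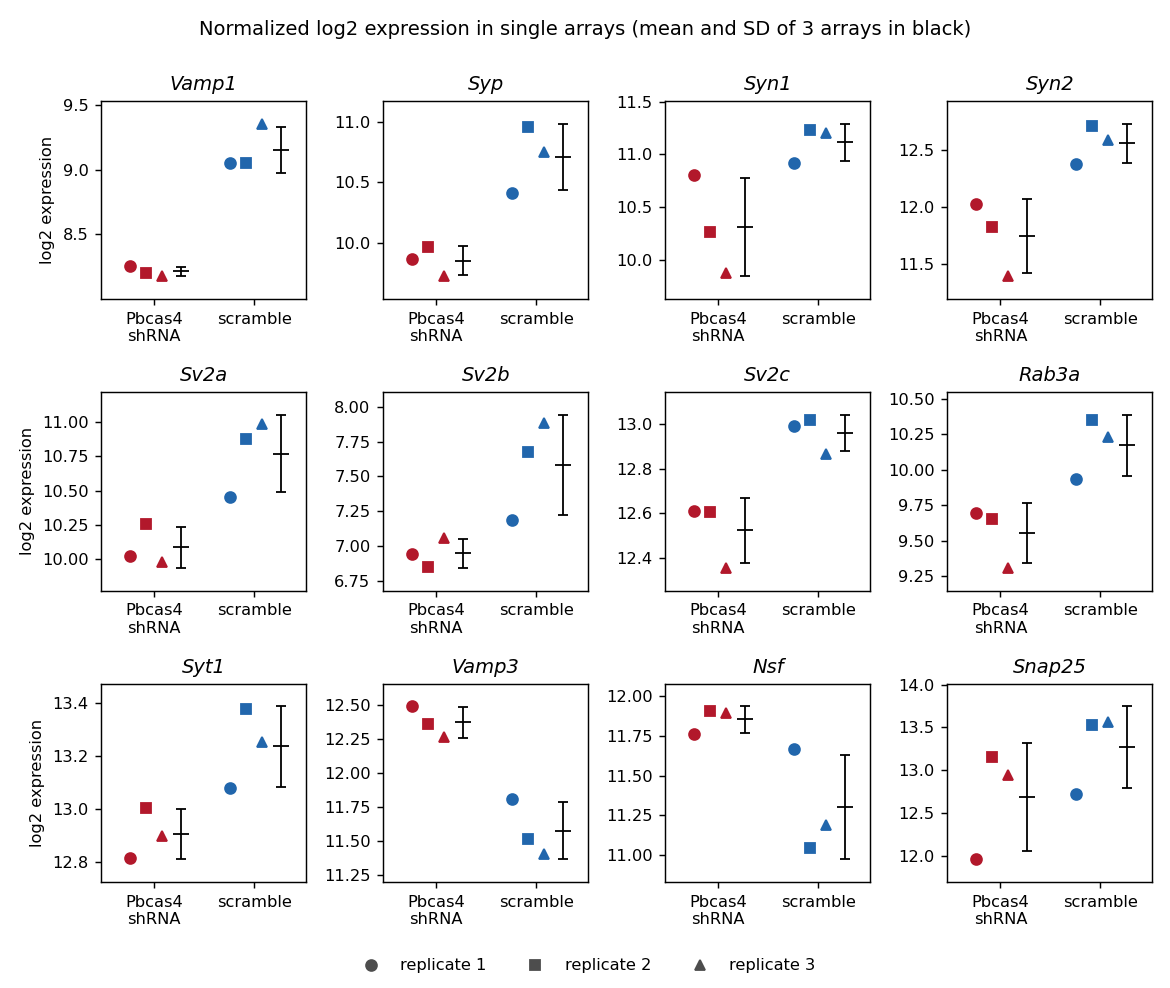
Normalized log2 expression of 12 members in single arrays of N2A cells, Pbcas4 shRNA left of scramble in each panel. Symbols give the replicate number, black bars the mean and SD of 3 arrays, and each panel has its own axis. Scramble replicate 1 is the scramble array nearest to the Pbcas4 shRNA arrays for Syp, Syn1, Sv2a, Sv2b and Nsf, while Vamp1 keeps all scramble arrays at 9.05 or above, and Snap25 overlaps.

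Both synapsins, which bind vesicles to one another and to actin in the reserve pool, were lower in all Pbcas4 shRNA arrays. Syn1 was at 10.80, 10.26 and 9.87 in the Pbcas4 shRNA arrays, against 10.91, 11.23 and 11.20 in the scramble arrays. Syn2 was at 12.03, 11.83 and 11.39 in the Pbcas4 shRNA arrays, against 12.38, 12.72 and 12.59 in the scramble arrays. The genes shared their ordering of the arrays, with Pbcas4 shRNA replicate 3 lowest and scramble replicate 2 highest. Their log2 differences were -0.80 (standard error 0.24) for Syn1 and -0.81 (standard error 0.18) for Syn2, with adjusted p of 0.401 and 0.359 from limma. Between the arrays numbered 1 the differences were -0.11 for Syn1 and -0.35 for Syn2, against -0.97 and -1.32 for Syn1 and -0.89 and -1.20 for Syn2 between the other same-numbered arrays.

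Among the 7 synaptotagmins and related C2-domain proteins, Syt1, Syt7 and Syt11 lay lower in every Pbcas4 shRNA array. Syt1, the sensor of fast release, was at 12.82, 13.00 and 12.90 in the Pbcas4 shRNA arrays and at 13.08, 13.38 and 13.25 in the scramble arrays. The step was small but regular, at -0.33 (standard error 0.11, 95% interval -0.59 to -0.07, adjusted p = 0.431 from limma). Syt7, a high-affinity sensor of slower release, was at 9.39, 9.70 and 9.64 in the Pbcas4 shRNA arrays, against 9.83, 10.09 and 10.18 in the scramble arrays (difference -0.46, standard error 0.13). Syt11, a synaptotagmin that does not bind calcium, was at 11.90, 11.79 and 11.71 in the Pbcas4 shRNA arrays and at 11.93, 12.26 and 12.20 in the scramble arrays (difference -0.33, standard error 0.12). For Syt11 the arrays numbered 1 were only 0.03 apart. The other members of this group overlapped, with differences of -0.18 for Syt4, -0.16 for Syt5, -0.01 for Syt2 and 0.06 for Doc2b, a cytosolic sensor with C2 domains. For Syt5 the interval of -0.80 to 0.47 also holds a change as large as that of Syt7, since both arrays numbered 1 lay far below the rest, at 11.52 for Pbcas4 shRNA and 11.61 for scramble, and the difference was 0.05 without Pbcas4 shRNA replicate 1. Syt4 differed by -0.05 without scramble replicate 3 and by -0.30 without scramble replicate 1.

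The complexins had opposite signs. Cplx2 was at 8.71, 9.25 and 9.14 in the Pbcas4 shRNA arrays and at 9.26, 9.45 and 9.41 in the scramble arrays. The groups did not overlap, but Pbcas4 shRNA replicate 2 and scramble replicate 1 were level at 9.25 and 9.26, and the difference of -0.34 (standard error 0.16, unadjusted p = 0.0681 from limma) became -0.18 without Pbcas4 shRNA replicate 1. Cplx1 overlapped at a difference of 0.30 (95% interval -0.25 to 0.86), although the Pbcas4 shRNA array was the higher one in each same-numbered comparison, by 0.23, 0.34 and 0.35. Its difference was 0.12 without Pbcas4 shRNA replicate 1, 0.52 without scramble replicate 1 and 0.19 without scramble replicate 3.

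All 4 RAB3 GTPases, which sit on vesicles in their GTP form and recruit release factors, had a lower mean in the Pbcas4 shRNA arrays. Rab3a, the main neuronal form, was at 9.70, 9.65 and 9.31 in the Pbcas4 shRNA arrays, against 9.93, 10.35 and 10.23 in the scramble arrays. It had the largest difference of the 4, at -0.62 (standard error 0.15, 95% interval -0.98 to -0.25, adjusted p = 0.376 from limma). Rab3c was at 11.84, 11.96 and 11.73 in the Pbcas4 shRNA arrays and at 11.98, 12.24 and 12.34 in the scramble arrays. Rab3d, the form of secretory granules in exocrine cells, was at 9.01, 9.69 and 9.33 in the Pbcas4 shRNA arrays and at 9.73, 9.91 and 9.88 in the scramble arrays. Neither overlapped, although in both the nearest arrays, Pbcas4 shRNA replicate 2 and scramble replicate 1, were almost level. Their differences were -0.34 for Rab3c and -0.50 for Rab3d. Without Pbcas4 shRNA replicate 1, Rab3d differed by -0.33. Rab3b overlapped at -0.31 (95% interval -0.65 to 0.02). Rph3a, or rabphilin, an effector that binds RAB3, had a difference of 0.09 (95% interval -0.18 to 0.36).

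By the probes that stand for the genes, none of the 6 factors that prime a docked vesicle reached an unadjusted p of 0.05 in limma or had arrays that did not overlap, and only Rims2 and Unc13a lay above the olfactory receptor level. Rims2, a scaffold of the active zone, had a difference of -0.04 (95% interval -0.26 to 0.19). Unc13a encodes Munc13-1, which opens syntaxin for priming. The brightest of its 3 probes had a difference of -0.10 (95% interval -0.30 to 0.10). Its other probes gave -0.19 and -0.50, and for the last all Pbcas4 shRNA arrays, at 9.30, 9.36 and 9.37, lay below the scramble arrays, at 9.94, 9.80 and 9.78, so the probes of Unc13a disagreed. The last probe had an unadjusted limma p of 0.000737 and an adjusted p of 0.340. Cadps, which encodes the CAPS1 protein of dense-core vesicle priming, differed by -0.32 (95% interval -0.70 to 0.06), Cadps2 by -0.11, Unc13b by -0.0028 and Rims1 by 0.08. Snap91, or AP180, which builds clathrin coats when vesicle membrane is taken back, differed by -0.12 (95% interval -0.37 to 0.14).

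**Figure D3:**
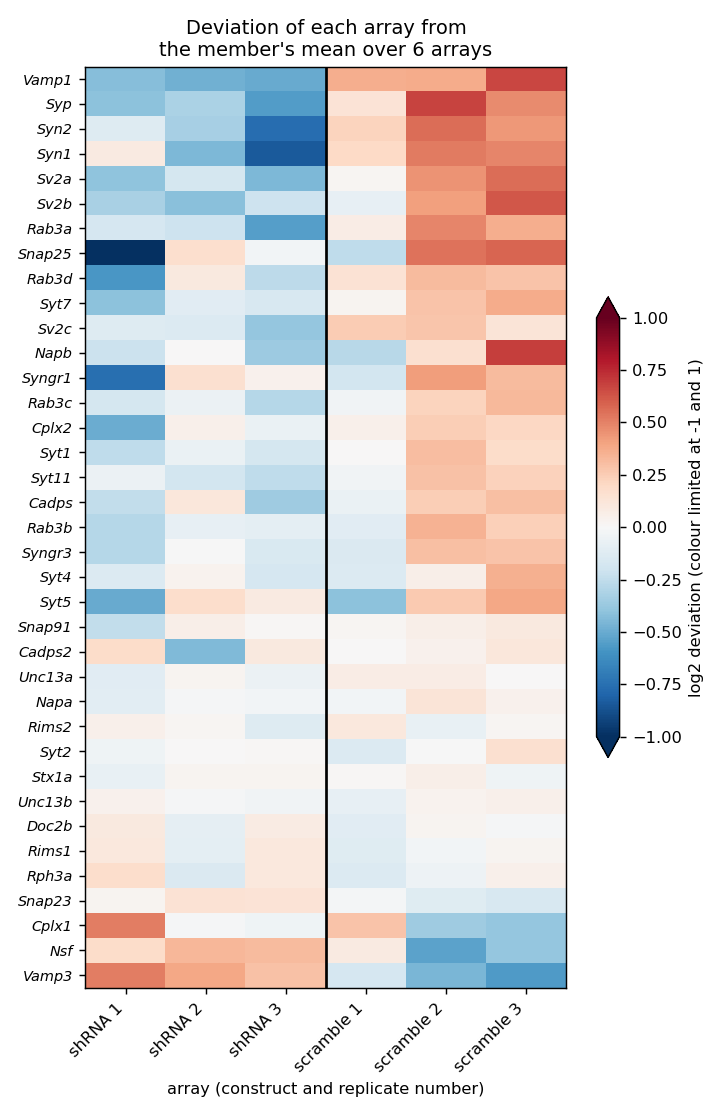
Deviation of each array from the mean of the 6 arrays, on the log2 scale, for the 37 measured members ordered by their difference (most negative at the top); columns are the arrays, Pbcas4 shRNA left of scramble. In most rows scramble replicates 2 and 3 are the highest, and scramble replicate 1 is closer to the Pbcas4 shRNA arrays.

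Across the members, scramble replicate 1 lay nearer to the Pbcas4 shRNA arrays than the other scramble arrays did, and by its median deviation it lay within their range. This was not particular to the members. Across all probes, scramble replicate 1 correlated at 0.9902 to 0.9926 with the Pbcas4 shRNA arrays, and at 0.9883 and 0.9869 with scramble replicates 2 and 3. Those 2 arrays correlated at 0.9843 to 0.9913 with the Pbcas4 shRNA arrays. Scramble replicate 1 was the lowest of the scramble arrays in 29 of the 37 members, among them 13 of the 14 that did not overlap and were lower. The median deviation from the member's mean over all arrays was -0.14, -0.01 and -0.10 in Pbcas4 shRNA replicates 1, 2 and 3, and -0.02, 0.24 and 0.23 in scramble replicates 1, 2 and 3. The mean of the Pbcas4 shRNA arrays minus scramble replicate 1 had a median of -0.08 over the members, and it was negative in 26 of 37. Minus scramble replicates 2 and 3 the median was -0.39 each, and it was negative in 29 and 30 of 37. Between same-numbered arrays the median was -0.14, -0.20 and -0.34. In 22 members the Pbcas4 shRNA array was lower in every same-numbered comparison, where this held for 18% of all genes. In 4, Vamp3, Snap23, Nsf and Cplx1, it was higher in every one, where this held for 19.4% of all genes. Without scramble replicate 1, 27 members did not overlap, 23 lower and 4 higher, where the same held for 19.7% and 20.3% of all genes, and the median was -0.41. Without Pbcas4 shRNA replicate 1, scramble replicate 2 or scramble replicate 3 the median was -0.22 each time.

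**Figure D4:**
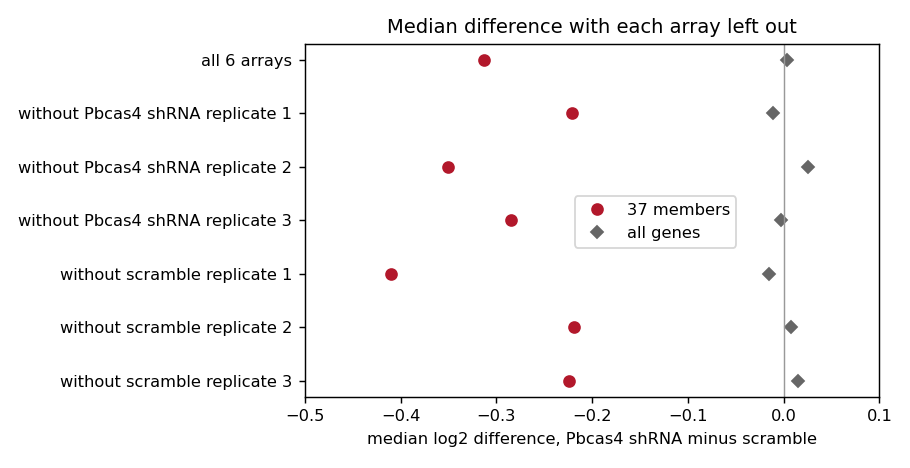
Median log2 difference, Pbcas4 shRNA minus scramble, over the 37 members (circles) and over all genes (diamonds), with all arrays and with each array left out. The members' median stays between -0.41 and -0.22, and that of all genes between -0.02 and 0.03.

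limma can also weight arrays by how closely they follow the fit. With such weights the same criteria called 12 members, where 6.62% of all genes were called. These were Vamp1, Syp, Syn1, Syn2, Sv2a, Sv2b, Sv2c, Rab3a, Rab3d and Cadps on the lower side and Vamp3 and Nsf on the higher side. Cadps and Sv2b are dim, the first below the olfactory receptor level. Pbcas4 shRNA replicate 3 was given a weight of 5.32 and scramble replicate 2 one of 2.39, while the rest had 0.353 to 0.875, so 1 array of each construct held most of its group's weight.

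Other genes of vesicle release and traffic had medians closer to 0 than the members, and limma called 0 of them in any of 5 further lists. The sympathoadrenal and neuroblastoma markers, outside these lists, came near the members. Their median difference was -0.26, and 9 of 10 had a lower mean, so a shift of this size was not particular to the members. The markers Dbh (-1.34, with overlap), Th (-1.08) and Chgb (-1.01, both without overlap) were more negative than any member, while Phox2a was higher (0.05). Of 38 measured SNAREs and SNARE partners outside the members, 22 had a lower mean. Their median difference was -0.04 (0.0010 without scramble replicate 3), and at an unadjusted limma p under 0.05, 4 were lower and 2 higher. None of this list was lower at that p without Pbcas4 shRNA replicate 3, scramble replicate 2 or scramble replicate 3, 2 were without Pbcas4 shRNA replicate 2, and 1 was after centring on the array median. Snapin, which binds SNAP-25, was at 10.19, 10.33 and 10.21 in the Pbcas4 shRNA arrays and at 10.37, 10.75 and 10.79 in the scramble arrays. The endosomal syntaxins Stx16 and Stx7 differed by -0.29 and -0.26, Stx16 by -0.18 without Pbcas4 shRNA replicate 1. Stx3, a syntaxin of the apical membrane of epithelia, differed by 0.25, with a scramble mean of 7.07 that was below the olfactory receptor level. Of 45 other vesicle membrane, sensor and synapsin genes, 25 had a lower mean and 7 were lower and 1 higher at an unadjusted limma p under 0.05, but the median was only -0.01 (0.012 after centring on the array median, and 0.0092 without scramble replicate 3). Over the 34 of these genes above the olfactory receptor level the median was -0.07, and over the 25 above the median of all probes it was -0.17. The count of 7 was 3 without scramble replicate 2, and 4 without Pbcas4 shRNA replicate 1, Pbcas4 shRNA replicate 3 or scramble replicate 3. Among its most negative differences were the vesicular monoamine transporters, which fill vesicles with catecholamines. Slc18a1 was at 8.16, 8.27 and 7.78 in the Pbcas4 shRNA arrays, against 8.99, 9.35 and 8.80 in the scramble arrays. Slc18a2 was at 11.85, 12.60 and 12.53 in the Pbcas4 shRNA arrays, against 12.93, 13.03 and 13.10 in the scramble arrays. Neither transporter overlapped, at differences of -0.97 for Slc18a1 and -0.69 for Slc18a2, the second -0.45 without Pbcas4 shRNA replicate 1. Sncg, or gamma-synuclein, overlapped at -0.97 (standard error 0.32), and Syt17 differed by -0.54 (standard error 0.12).

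Of 30 further active zone, priming and Rab genes, 21 had a lower mean. Their median was -0.07 (-0.11 over the 26 above the olfactory receptor level and -0.15 over the 24 above the median of all probes), with 3 lower and 2 higher at an unadjusted limma p under 0.05. Ppfia2, or liprin-alpha-2, a scaffold of the active zone, was at 10.44, 10.13 and 9.95 in the Pbcas4 shRNA arrays and at 10.93, 11.02 and 10.91 in the scramble arrays. Rab27a, a Rab of dense-core and lysosome-related granules, differed by -0.62 (standard error 0.16), and Unc13d, or Munc13-4, one of its partners, by -0.63 (standard error 0.18). In both, all Pbcas4 shRNA arrays lay below all scramble arrays. Syde1 lay the other way at 0.65 (standard error 0.18). Of 36 endocytosis genes, 23 had a lower mean. Their median was -0.04 (0.0048 without Pbcas4 shRNA replicate 1), with 3 lower and 0 higher at an unadjusted limma p under 0.05. These were Sgip1, an endocytic adaptor (-0.53), the endophilin relative Sh3glb2 (-0.39) and Synj1, or synaptojanin 1, the phosphatase that strips clathrin coats (-0.37). The exocyst, which tethers vesicles of constitutive secretion, had a median of -0.05 over 9 genes (0.0060 without scramble replicate 3), 6 of them with a lower mean, and 1, Exoc5, was higher at an unadjusted limma p under 0.05, with a difference of 0.24. No exocyst gene reached that p when any array other than scramble replicate 1 was left out.

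**Figure D5:**
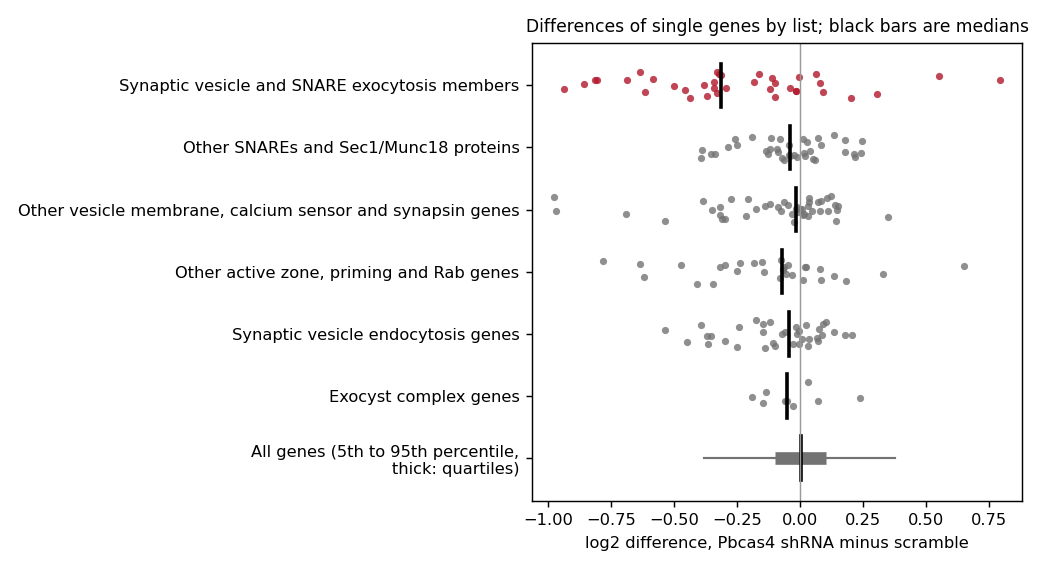
Log2 difference, Pbcas4 shRNA minus scramble, of single genes in the members and in 5 further lists, with the spread of all genes at the bottom. Points are genes and black bars medians. The members' median lies at -0.31 and those of the other lists between -0.07 and -0.01, while the 5th and 95th percentiles of all genes lie at -0.38 and 0.38.

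Promoter sequence was compared as a feature that the choice of members did not use. RefSeq entries on GRCm38.p6 gave the 250 bases before a start site for 29 of the 38 members and for 27025 genes. Those genes were not limited to ones measured here or above the olfactory receptor level, so the shares compare unlike sets. A gene with several entries counted where any of them held the motif. Letters were searched on both strands. The GC box GGGCGG was in 22 of 29 members, and in 35.4% of all genes. It was in 10 of 13 members that were lower without overlap, in 0 of 2 that were higher and in 12 of 14 that overlapped. The CCAAT box was in 11 of 29 members and in 37.5% of all genes. The cAMP response element TGACGTCA and TTCAGCACC, the left arm of the RE1 element that the repressor REST binds, were each in 1 member, Syn1, and in 1.77% and 0.348% of all genes. The windows of 4 members, chosen after their values were seen, are shown so that these letters can be seen in place: Vamp1 and Syp, which had the most negative differences, Syn1, the member with the rarer motifs, and Nsf, which lay the other way. Capitals mark any of the 4 motifs on either strand. No motifs overlapped one another in these windows, and a match is a description of letters only.

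Vamp1, GRCm38.p6 chr6:125215331-125215580, plus strand, where a GC box lies 108 to 103 bases before the start and 3 CCAAT boxes are on the other strand:
Vamp1: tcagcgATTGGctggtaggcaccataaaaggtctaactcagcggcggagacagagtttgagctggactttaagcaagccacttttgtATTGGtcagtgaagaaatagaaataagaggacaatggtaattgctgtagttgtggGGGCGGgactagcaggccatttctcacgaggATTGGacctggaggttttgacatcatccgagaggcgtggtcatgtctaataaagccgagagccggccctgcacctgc
Syp, GRCm38.p6 chrX:7638330-7638579, plus strand, with 2 GC boxes:
Syp: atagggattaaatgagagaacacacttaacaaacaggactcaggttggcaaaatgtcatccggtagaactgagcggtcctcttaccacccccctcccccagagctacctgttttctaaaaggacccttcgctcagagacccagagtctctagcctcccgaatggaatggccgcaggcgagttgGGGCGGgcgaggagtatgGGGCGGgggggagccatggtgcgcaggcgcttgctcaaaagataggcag
Syn1, GRCm38.p6 chrX:20920919-20921168, minus strand, with TTCAGCACC 232 to 224 and TGACGTCA 159 to 152 bases before the start:
Syn1: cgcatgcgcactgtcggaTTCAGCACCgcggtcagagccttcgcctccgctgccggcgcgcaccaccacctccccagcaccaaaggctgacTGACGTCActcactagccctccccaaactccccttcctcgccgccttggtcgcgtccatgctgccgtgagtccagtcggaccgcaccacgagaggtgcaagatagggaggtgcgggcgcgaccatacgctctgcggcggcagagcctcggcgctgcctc
Nsf, GRCm38.p6 chr11:103954057-103954306, minus strand, with 0 of the motifs:
Nsf: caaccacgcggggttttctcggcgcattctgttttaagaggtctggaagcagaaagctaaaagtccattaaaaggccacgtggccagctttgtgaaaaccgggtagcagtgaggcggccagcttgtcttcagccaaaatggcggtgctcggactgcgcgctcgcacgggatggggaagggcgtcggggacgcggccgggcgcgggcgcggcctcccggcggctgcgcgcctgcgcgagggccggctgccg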

How the data were processed

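The authors deposited 1 log2 value per probe and array. These values were used without further scaling, except in the alternatives named below. How background was removed, probes were combined and arrays were scaled is not given in the sources used here. The 6 arrays carry labels for construct and replicate, and all were used. Of 35556 probes, 21789 carry exactly 1 gene symbol in the platform's annotation, 1621 several and 12146 none. The probe with the highest mean over the arrays stood for a gene. All probes were fitted with lmFit and eBayes of limma 3.58.1 (R 4.3.3) with 1 term for the construct, and its two-sided p was adjusted by Benjamini-Hochberg across them. A call required both an adjusted p below 0.05 and a log2 difference larger than 0.5, a reading of the size criterion in the study's methods. The study words it as a variance between conditions, and with limma it did report differentially expressed genes between the constructs. The fit here did not give such a list, and why the results differ was not tested. Single members were also compared by exact permutation of the arrays, whose smallest two-sided p is 0.1. The fit was tested on simulated data with independent noise and changes of 1 or 2 on the log2 scale. All members' differences were smaller, so that test does not cover them. Each limma p sets a difference against the spread between transfections made in triplicate, which limma moderates across all probes. The number of arrays limits the precision of this spread, and the fit with 1 term for the construct treats the arrays as independent. Every member is accounted for. Members are given array by array where an unadjusted p was under 0.05 or the arrays did not overlap, and Vamp2, Snap25, Stx1a, Syt1 and Syp in any case; of other lists, up to 4 genes at an unadjusted p under 0.05 by size. The members and lists were chosen with earlier results of these data known. After each construct's mean was taken off, same-numbered arrays correlated at 0.291, 0.137 and 0.103 across probes. Of the other combinations, Pbcas4 shRNA replicate 2 with scramble replicate 3 reached 0.199, so the pairing is a hint from the data. As every same-numbered value was above 0.1, the replicate number was fitted as a block in an alternative. Array weights, a robust variance with a trend, median centring of arrays, quantile normalization, 2 thresholds for dim probes, averaging over the probes of a gene, dropping the size criterion and leaving out each array were also tried. Comparisons with single scramble arrays and between same-numbered arrays, each array left out for all members and lists, and the dim side of Sv2b were added after the data were seen. Figures were drawn with matplotlib 3.10.9.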

Additional observations from a re-analysis of the deposited data

How the results depend on the processing

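The count of members called stayed at 0 under every alternative but array weights, with which 12 members and 1320 genes were called and 23 members had an unadjusted p under 0.05 (20 lower, where 15.1% of all genes were, and 3 higher, where 17.5% were). With the replicate number as a block, 20 members were at an unadjusted p under 0.05, 17 lower, where 7.35% of all genes were, and 3 higher, where 7.2% were, and the block changed no call. Snap25 was among those 20 (unadjusted p = 0.00343 from limma, adjusted p = 0.256), while Syt11 was not (unadjusted p = 0.0512 from limma). The number of members whose arrays did not overlap was 13 after centring on the array median (10 lower and 3 higher, where 4.7% and 12.2% of all genes were). It was 17 to 27 with each array left out, where 27 was without scramble replicate 1. This number cannot fall when an array is left out, so its lower end shows no stability. The share of all genes was then 9.58% to 19.7% lower and 11.4% to 20.3% higher. The members' median was -0.34 to -0.29 under the other alternatives and -0.41 to -0.22 with each array left out. Of 19 members followed singly, the direction held in 150 of 151 values under 8 alternatives and in 112 of 114 with an array left out. The exceptions were all Stx1a, at 0.013 after centring on the array median and at -0.039 to 0.022 with an array left out. These counts say little about stability. Most of the 19 were followed because their arrays did not overlap, and leaving out an array cannot turn the direction of such a member. Several alternatives, such as the block and the variance model, also leave the difference itself unchanged. The overlap of arrays does not depend on the block, the variance model or the weights, so it was not run under them. Members near the olfactory receptor level, such as Sv2b, have little room to lie lower.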
